A study of Homo sapiens with 12 samples.

Results

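The receptors described here are 9 surface proteins through which T cells are costimulated, restrained or marked as activated: CD28, ICOS, CD27, TNFRSF9, CTLA4, PDCD1, CD5, CD6 and CD69. They were found by gene symbol in the gene lists of all 20 PAR-CLIP libraries and in the tables of mean transcript abundance. Of the 9 genes, 4 had a called eIF3 cluster in at least 1 library (CD28, CD69, CD5 and CD6), among 6036 genes with a cluster in any library. The other 5 (ICOS, CTLA4, CD27, PDCD1 and TNFRSF9) had no called cluster in any of the 20 libraries. All 9 were among the 41129 genes of the abundance tables.

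The libraries came from Jurkat cells, a single human T cell leukaemia line, either activated for 5 hr with ionomycin and PMA (I + PMA) or left non-activated. I + PMA bypasses the T cell receptor and CD28 themselves. Both states were labelled with 50 μM 4-thiouridine, a uridine analogue that crosslinks to bound protein under UV light and is then read as a T-to-C change. eIF3 was immunoprecipitated with an antibody to EIF3B, and RNA was sequenced from 5 gel bands in 2 replicates of each state. The bands are named by the subunits they hold: EIF3A/C/B and EIF3B/C, then EIF3D/L, and lastly both EIF3F/E and EIF3G/E/F. For replicate 2, the PAR-CLIP labels follow a correction made by the depositors.

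A naive T cell needs a second signal beside its antigen receptor, and CD28 is the receptor that classically delivers it. ICOS and CTLA4 are relatives of CD28 that share a locus with it: ICOS costimulates activated T cells, while CTLA4 competes for the ligands of CD28 and restrains them. PDCD1 (PD-1) is a further inhibitory receptor, and CD27 and TNFRSF9 (4-1BB) are costimulatory receptors of the TNF receptor family. CD5 and CD6 are scavenger receptor family proteins that tune signals of the antigen receptor, and CD69 is among the first surface proteins to appear on an activated lymphocyte. eIF3 is the large initiation factor that joins the small ribosomal subunit to mRNA, and it can also crosslink to mRNA outside the start region.

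In the hg38 build, CD28, CTLA4 and ICOS lie in this order on the plus strand of chromosome 2, at chr2:203706475-203738912, chr2:203853888-203873965 and chr2:203936763-203961577. Of these neighbours, the transcripts of CD28 alone had clusters. PDCD1 is at chr2:241849884-241858894 on the minus strand. CD6 (chr11:60971680-61020377) and CD5 (chr11:61102489-61127852) lie near each other on the plus strand of chromosome 11. CD27 (chr12:6444955-6451718, plus strand) and CD69 (chr12:9752486-9760901, minus strand) are on chromosome 12, and TNFRSF9 (chr1:7915871-7943165, minus strand) is on chromosome 1.

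CD69 and CD28 were the receptors with clusters called at the start codon, where initiation ends. The start codon of CD69 is at chr12:9760818-9760820 and that of CD28 at chr2:203706697-203706699 (hg38, GENCODE annotation). The 30 bases around each are shown because the start codon sites below refer to them, with the ATG in capitals, 13 bases before it and 14 after. The deposited lists give the region of a site but not its position, so the windows mark the codon and not the crosslink.
CD69: cttgagaataaagATGagctctgaaaattg
CD28: cgtcaggacaaagATGctcaggctgctctt
The CD69 window holds 8 thymidines (uridines in the mRNA) and the CD28 window 7.

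Transcript abundance was measured as TPM, the share of a transcript among all transcripts scaled to a fixed total, summed over the isoforms of a gene and deposited only as the mean of 2 replicates, so these values have no error and no test. CD69 was the most abundant receptor in activated cells, with 13.3 TPM against 0.850 without activation, a linear ratio of 15.6. CD28 had 2.42 TPM with activation and 4.32 without, CD5 had 2.11 and 3.15, and CD6 had 1.41 and 2.47. The remaining 5 receptors were under 1 TPM in both states.

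ICOS stood at 0.538 TPM with activation and 0.0776 without, and PDCD1 at 0.322 and 0.00981. CD27 had 0.172 and 0.411 TPM in the same order, TNFRSF9 had 0.0241 and 0.0603, and CTLA4 had 0.00296 and 0.000917. The order in activated cells was therefore CD69, CD28, CD5, CD6, ICOS, PDCD1, CD27, TNFRSF9 and CTLA4. Because no replicate values were used, which neighbours in this order differ beyond their spread was not tested. In these bulk libraries, more cells with an mRNA and more of it per cell cannot be told apart.

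**Figure D1:**
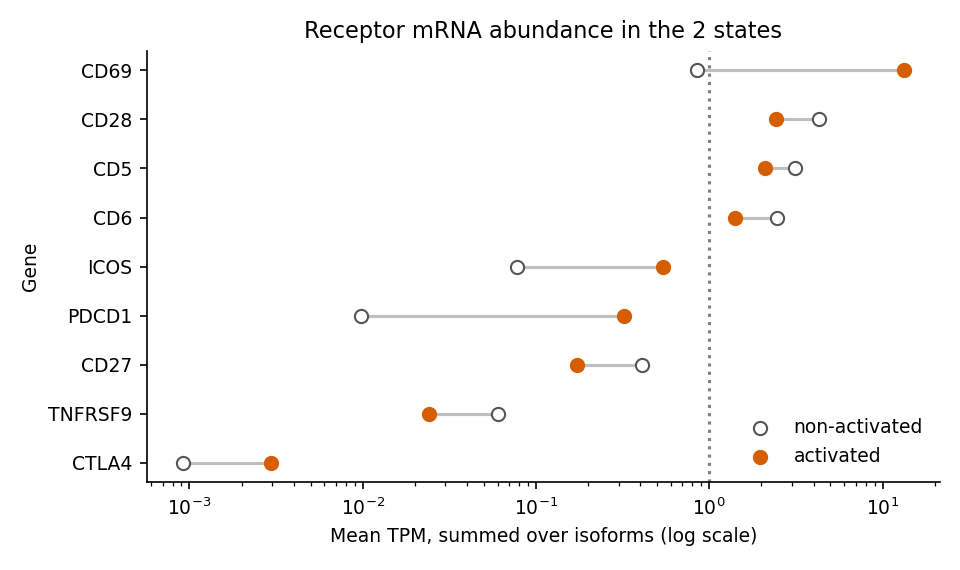
Mean TPM of each receptor, summed over isoforms, on a log axis, in activated (filled) and non-activated (open) cells. The dotted line marks 1 TPM. CD69 was at 0.850 TPM in non-activated and 13.3 in activated cells, and 5 of the 9 receptors lay below 1 TPM in both states.

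The direction of the smaller differences depends on the scale. Transcripts of protein-coding type made up 1.53% of all TPM with activation and 9.24% without, and those annotated as miRNA genes made up 76.7% and 49.8%. Over the 8504 genes whose mean TPM was 1 or more, the median log2 difference (activated minus non-activated, after adding 0.1 TPM) was -2.22. Relative to this median gene, CD69 was higher in activated cells by 6.03 on the log2 scale, CD5 by 1.66, CD6 by 1.44 and CD28 by 1.41, whereas with no centring CD69 was at 3.81 and the other receptors turned negative, at -0.56, -0.77 and -0.81. All 4 receptors tested for size were past a centred log2 difference of 1, as were 490 of all 8504 genes (5.76%), while 321 genes (3.77%) were past it downwards. With no centring the split was 45 upwards and 8156 downwards. When protein-coding isoforms alone were scaled to their own total, an alternative chosen after the data were seen, the values were 6.37 for CD69, 1.98 for CD5, 1.73 for CD28 and 1.20 for CD6. ICOS also passed the filter on mean TPM on that scale, at 4.24, so 5 receptors were kept and all 5 were past 1. Of all 7861 genes kept there, 622 were past 1 upwards and 161 downwards. Protein-coding isoforms made up 66.8% of CD69 TPM with activation and 64.3% without, the remainder being isoforms with a retained intron. They made up 44.3% and 63.9% of CD6 TPM in the same order, and all of CD28 and CD5.

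The labelled T cell line carried its markers. Of 10 T cell markers, 8 were at 1 TPM or more in both states, with a summed level of 77.6 TPM with activation and 341 without. CD4 was at 0.0196 and 0.234 TPM. None of 12 markers of other cell types reached 1 TPM in both states, and their summed level was 0.941 and 7.34 TPM. CD79A, a B cell receptor component, and NKG7, of cytotoxic cells, were the markers over 1 TPM in 1 state, at 4.82 and 2.11 TPM in non-activated cells. Their part in the abundance values was not tested.

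PAR-CLIP depth differed between the states. Uniquely aligned reads, called depth here, ran from 83846 to 1163754 per library. By this count the activated EIF3A/C/B libraries were 13.6 and 13.9 times as deep as the non-activated ones. Sequenced reads differed less, with 20235807 and 20806441 after activation and 8192519 and 8507438 without it. In EIF3D/L they were 9578513 and 11416979 against 13220547 and 12880843. Why the aligned share differed was not tested, so scaling to depth can also remove a difference in how much RNA was crosslinked. A cluster needed at least 7 reads, so a receptor without one can still have had reads. No receptor had a cluster in any of the 10 non-activated libraries, where few genes had one: 76 to 1133 genes were listed per library, and 21.5% of the 6036 genes with a cluster anywhere had one in a non-activated library.

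CD69 had clusters in 8 of the 10 activated libraries, the most of the 9 receptors. In EIF3A/C/B it had 94 and 71 reads in replicates 1 and 2, over 5 and 3 sites. EIF3B/C held 67 and 57 of its reads over 4 and 5 sites. In EIF3D/L it had 19 and 19 reads over 2 and 1 sites, and in EIF3G/E/F 7 and 10 reads in 1 site each. It had no called cluster in EIF3F/E.

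Scaled to depth (cluster reads per 1000000 uniquely aligned reads), CD69 was at 81.9 and 61.0 in EIF3A/C/B, and the EIF3B/C values were 73.2 and 62.9. EIF3D/L gave 94.8 and 76.1, and EIF3G/E/F gave 52.3 and 76.5. The ranges of the bands overlap, except that both EIF3D/L values lie above both EIF3B/C values. EIF3D/L was not tested against another band.

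CD28 had 61 and 69 reads in EIF3A/C/B, over 5 and 6 sites. In EIF3B/C it had 25 and 34 reads over 3 and 4 sites. It had 8 reads in 1 site of EIF3G/E/F replicate 2, and no called cluster in the other 5 activated libraries. Scaled to depth, both EIF3A/C/B libraries were higher (53.1 and 59.3 on this scale) than both EIF3B/C libraries (27.3 and 37.5).

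CD6 had clusters in 7 activated libraries, with 63 and 51 reads in EIF3A/C/B, while EIF3B/C had 38 and 26. In EIF3D/L it had 8 and 7 reads. It was also the only one of the 9 receptors with a cluster in EIF3F/E, of 11 reads, in replicate 2 alone, although replicate 1 of that band had more uniquely aligned reads (146214 against 138162). CD5 had 7 reads in EIF3A/C/B and 9 reads in EIF3B/C, each in 1 site of replicate 1 and at or just over the minimum for a cluster.

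**Figure D2:**
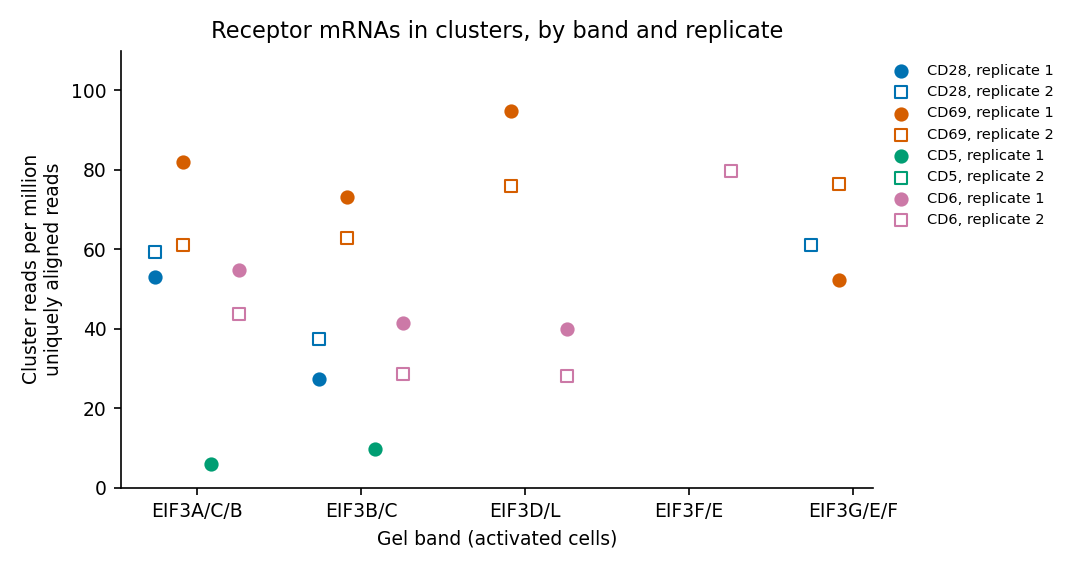
Cluster reads per 1000000 uniquely aligned reads (vertical axis) of the 4 receptors with clusters, in the 5 gel bands of activated cells. Filled circles are replicate 1 and open squares replicate 2, and a missing symbol means no called cluster. CD69 lay between 52.3 and 94.8 in its 4 bands, and CD5 did not exceed 9.83.

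The receptors without clusters were the 5 least abundant. In activated EIF3A/C/B, 83.6% of the 220 protein-coding genes with 0.5 to 2 times the activated TPM of CD69 had a cluster in either replicate. This share was 71.7% around CD28, 68.7% around CD5 and 60.3% around CD6. It was 42.4% of 5112 genes around ICOS, 33.0% around PDCD1, 20.6% around CD27, 1.16% around TNFRSF9 and 0.410% around CTLA4. At the abundance of CTLA4 and TNFRSF9, few genes had a cluster. These shares describe the libraries, and the window was chosen after the data were seen.

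Per TPM, CD69 had fewer cluster reads than most genes with clusters in both activated EIF3A/C/B libraries. Over 4114 genes with clusters in both activated EIF3A/C/B libraries and a TPM above 0, the median was 32.2 cluster reads per TPM. CD69 had 6.23 reads per TPM, and 90.6% of these genes had a higher value. It was 151st of these genes by TPM and 870th by reads. CD28, with 26.9 reads per TPM (55.7% of genes higher), and CD6, with 40.6 (43.4% higher), lay near the middle. Genes are not replicates, so these places were not tested. Each ranked gene needed a cluster of at least 7 reads in both libraries, so genes of low TPM could enter only with high values. How far the place of CD69 follows from its TPM was not tested. Cluster reads, unlike TPM, are not scaled by transcript length. The main transcripts in the abundance tables had 1676 bases for CD69, 4812 for CD28 and 3252 for CD6. In activated cells they held 7.59 of 13.3, 1.37 of 2.42 and 0.526 of 1.41 TPM in this order. A CD28 isoform of 705 bases held 1.02 TPM. The part of length in these values was not tested. In EIF3B/C, CD69 had 4.68 reads per TPM and 90.8% of 2731 genes were higher. There 72.8% of genes were higher than CD28 and 55.7% higher than CD6. By the main protein-coding isoform in EIF3A/C/B, 65.4% were higher than CD28.

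**Figure D3:**
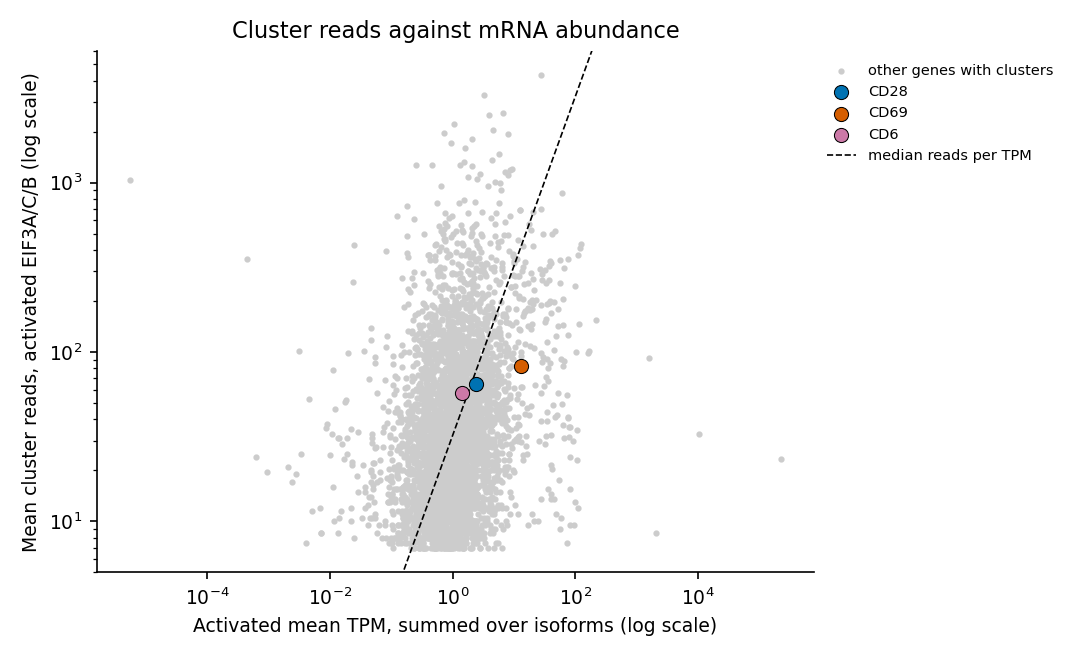
Mean cluster reads in the activated EIF3A/C/B libraries (vertical, log) against activated mean TPM summed over isoforms (horizontal, log), for 4114 genes in grey and 3 receptors in colour. The dashed line is the median of 32.2 reads per TPM. CD69 lies below this line, and CD28 and CD6 lie near it.

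The sites of the 4 receptors fell in different parts of their mRNAs. CD28 had 1 site in the 5'-UTR and 1 at the start codon in each EIF3A/C/B replicate, with 2 and 3 coding sites and 1 and 1 in the 3'-UTR. In EIF3B/C it had no 5'-UTR or start codon site in either replicate, but 1 and 2 coding sites and 2 and 2 in the 3'-UTR. The lone EIF3G/E/F site was also in the 3'-UTR. The CD28 counts are not corrected for the lengths of the regions, so they do not show which region had more sites per base. Start codon sites were 8.95% and 8.72% of all sites in activated EIF3A/C/B, against 4.35% and 4.31% in EIF3B/C, and 5'-UTR sites were 37.1% and 36.7% against 38.2% and 38.2%.

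CD69 had more sites in the 3'-UTR than in any other region in the 2 bands with most reads. In EIF3A/C/B it had 3 and 2 sites in the 3'-UTR, 1 and 1 at the start codon, and 1 coding site in replicate 1. In EIF3B/C it had 2 and 3 sites in the 3'-UTR and 1 and 1 coding sites. The remaining EIF3B/C site was called at the start codon in replicate 1 and in the 5'-UTR in replicate 2. The 3'-UTR held 12.2% and 12.7% of the sites of all genes in the activated EIF3A/C/B libraries and 19.9% and 19.6% in those of EIF3B/C, against 5 of 8 and 5 of 9 sites of CD69 with both replicates added. These counts are not corrected for length. Per kb, the CD69 3'-UTR had 3.02 and 2.01 sites in EIF3A/C/B and 2.01 and 3.02 in EIF3B/C. The 5'-UTR with the start codon had 12.3 per kb in each of these libraries, from 1 site each.

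In EIF3D/L, all CD69 sites were at the 5' end of the mRNA. Replicate 2 had all of its 19 reads in 1 site at the start codon shown above, and replicate 1 had 1 site there and 1 in the 5'-UTR. 5'-UTR sites were 51.7% and 51.1% of all EIF3D/L sites and start codon sites 9.31% and 7.76%, while the 3'-UTR held 8.23% and 10.1%. EIF3G/E/F had its CD69 site in the 3'-UTR in replicate 1 and in the 5'-UTR in replicate 2. The main CD69 transcript (ENST00000228434.7) has a 5'-UTR of 81 bases, a coding region of 600 and a 3'-UTR of 995, with 23.5%, 27.2% and 34.2% uridine.

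CD6 had most of its sites in the 5'-UTR. Of its 10 sites over 7 libraries, 7 were in the 5'-UTR, 1 in each library, 2 were coding (EIF3A/C/B replicate 1 and EIF3B/C replicate 2), and 1 in EIF3B/C replicate 1 had no region class. None lay at the start codon or in the 3'-UTR. The annotated CD6 transcript (ENST00000313421.11) has a 5'-UTR of 186 bases with 11.3% uridine, a coding region of 2007 bases with 17.4%, and a 3'-UTR of 1059 with 20.7%. The CD5 site was in the 5'-UTR in EIF3A/C/B and in the 3'-UTR in EIF3B/C.

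**Figure D4:**
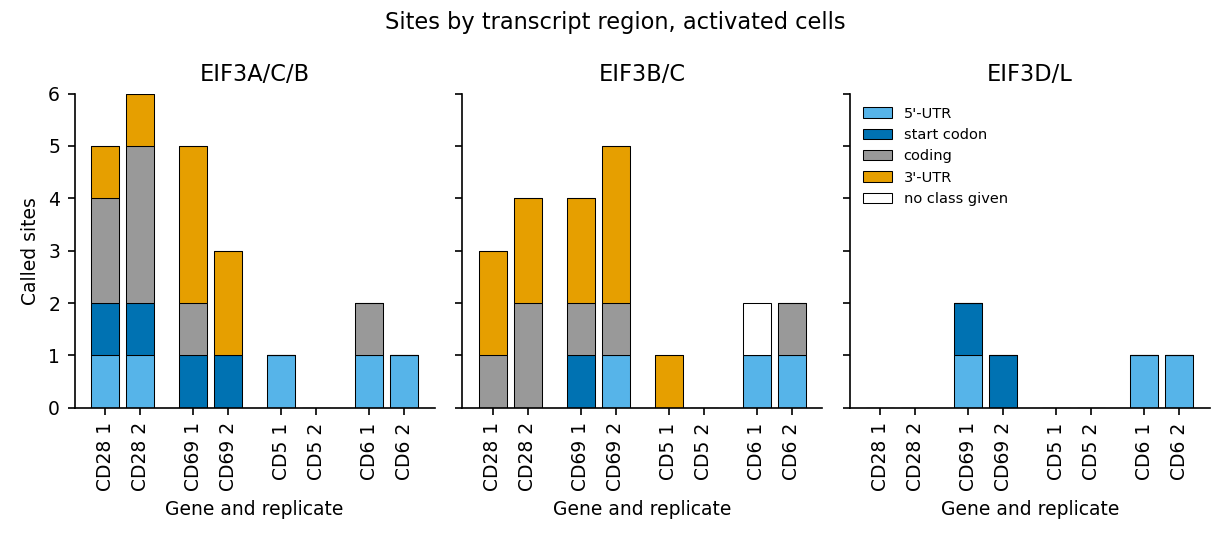
Number of called sites (vertical axis) of each receptor by transcript region, for replicates 1 and 2 of 3 gel bands of activated cells. CD28 has 5'-UTR and start codon sites in EIF3A/C/B only, CD69 has 3'-UTR sites in EIF3A/C/B and EIF3B/C but not in EIF3D/L, and CD6 has 1 5'-UTR site in every library shown.

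The reads behind the sites also differed in make-up between the receptors. The paper describes collapsing reads by a random barcode to limit PCR bias, so repeated sequences need not be PCR copies. Distinct read sequences made up 96.8% and 95.8% of CD69 reads and 93.4% and 95.7% of CD28 reads in activated EIF3A/C/B, against library medians of 77.5% and 77.8% over genes with at least 20 reads. CD6 had 29 distinct sequences among 63 reads (46.03%) and 20 among 51 (39.2%), and 6.54% and 5.23% of genes were lower. These CD6 reads lay in 2 and 1 sites, against 5 and 6 sites for CD28 and 5 and 3 for CD69. The part of site number in these shares was not tested. In EIF3B/C, CD6 had 42.1% in replicate 1 and 73.1% in replicate 2, where the median was 73.1% and 73.9%.

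The T-to-C fraction, the share of reads at a site that carry the conversion, was 0.708 and 0.724 per site for CD28 in EIF3A/C/B, below the library medians of 0.856 and 0.857. Genes with a lower value made up 5.95% and 7.98% of these libraries. In EIF3B/C, where the 5'-end sites of CD28 were not called, its fraction was 0.963 and 0.909, above the medians of 0.883 and 0.883. CD69 had 0.901 and 0.855 in EIF3A/C/B. CD6 was at 0.839 in replicate 1 and at 0.608 in replicate 2, where 2.24% of genes were lower.

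The activated and non-activated libraries of a band were compared by edgeR's quasi-likelihood test on cluster reads, scaled to the uniquely aligned reads of each library. A gene entered if any of the 4 libraries gave it 20 reads or more. CD28, CD69 and CD6 entered in EIF3A/C/B and EIF3B/C through their activated reads alone, and were set against 0 in both non-activated libraries, where no cluster was called. edgeR called all 3 higher in both bands, as it did 77.1% of all genes tested in EIF3A/C/B, while for EIF3B/C the share was 40.9%. These calls are not evidence of a difference in binding, because the filter, the cluster minimum and the depth gap can give such zeros with no change. The scaled reads given next are the measure that can be read. CD5 stayed below 20 reads, and the other 5 receptors had no cluster to test.

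Nor were the calls stable over all settings. All 3 receptors stayed called in both bands under TMM, with mRNA reads as library sizes and with no filter on low counts. DESeq2 gave the 3 no adjusted p in EIF3A/C/B. In EIF3B/C it called CD69 and gave none for the other 2. Without activated replicate 1, and likewise without activated replicate 2, edgeR called none of the 3 receptors in either band, and 0 of the 3 had an unadjusted p under 0.05 (adjusted p from 0.968 to 0.986 in EIF3A/C/B and from 0.905 to 0.911 in EIF3B/C). Such a p was found for 42 to 44 of all genes in EIF3A/C/B, while EIF3B/C had 159 to 162. With the summed cluster reads as library sizes, the 3 receptors were not called in EIF3A/C/B (adjusted p from 0.362 to 0.430, edgeR), and the split of all genes changed from 2484 higher and 16 lower to 131 and 105. In EIF3B/C the 3 receptors stayed called with these sizes (adjusted p from 0.0307 to 0.0395, edgeR), and that split changed from 894 and 54 to 673 and 183.

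No fold change is given, since the non-activated reads were not seen below the cluster minimum. Instead, the activated reads were scaled to the depth of each non-activated library. In EIF3A/C/B this gave 4.74 and 4.71 reads for CD28, 6.02 and 5.99 for CD69 and 4.16 and 4.14 for CD6, all of which are below the 7 reads that 1 cluster needs. In EIF3B/C, CD69 came to 13.0 and 20.3 reads in all but to 2.96 and 4.60 per site. CD28 (6.21 and 9.66 reads, 1.77 and 2.76 per site) and CD6 (6.73 and 10.5 reads, 3.36 and 5.23 per site) were also below 7 per site. In these 2 bands, then, the same reads per depth would have left the mean site under the minimum. The lists give no reads of single sites, so in EIF3B/C a site with most of the reads could have passed. Scaled by mRNA reads, the EIF3B/C totals were 9.75 and 15.4 for CD69, 4.64 and 7.35 for CD28, and 5.03 and 7.95 for CD6. How much was bound without activation was therefore not measured.

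EIF3D/L differed in this respect for CD69. Its depths were alike in the 2 states, with 200340 and 249762 uniquely aligned reads after activation and 187745 and 178444 without it. The scaled CD69 reads were 16.0 and 15.2, or 11.6 and 11.02 per site, over the minimum of 7, and no cluster was called in either non-activated library. However, mRNA made up 49.2% and 49.3% of the uniquely aligned EIF3D/L reads after activation and 12.6% and 12.5% without it. Scaled by mRNA reads, CD69 came to 4.12 and 3.86 reads, under the minimum. CD69 had 19 reads in both activated libraries and so fell short of the filter for the test. CD6 came to 6.38 and 6.06 reads in EIF3D/L.

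**Figure D5:**
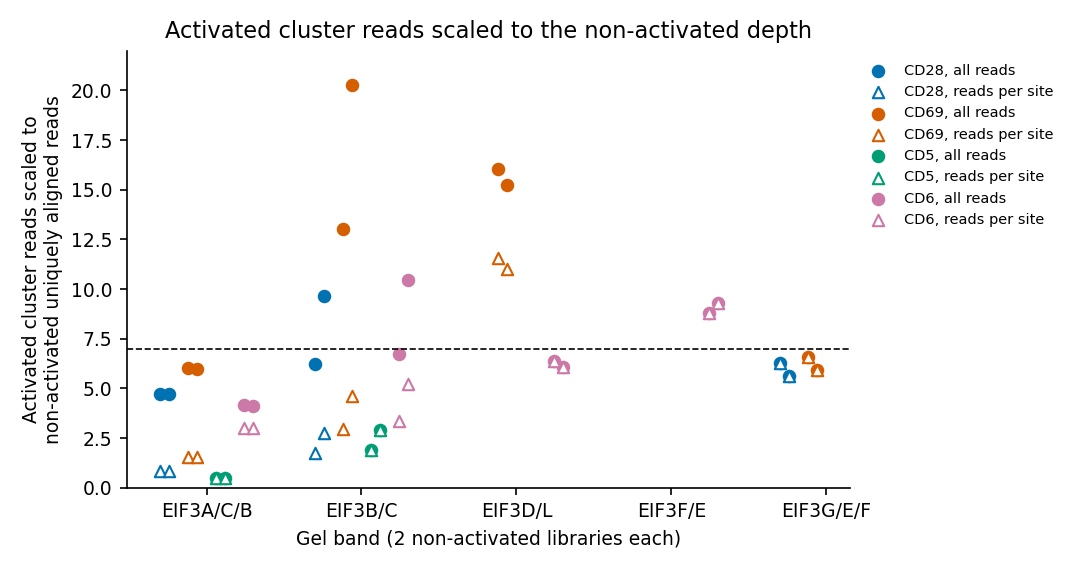
Activated cluster reads of each receptor scaled to the uniquely aligned reads of the 2 non-activated libraries of each band, in total (filled circles) and per site (open triangles). The dashed line marks the 7 reads a cluster needs. Per site, CD69 in EIF3D/L (11.6 and 11.02) and CD6 in EIF3F/E (8.80 and 9.32) lie above the line.

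In EIF3F/E the scaled CD6 reads were 8.80 and 9.32, in 1 site, above the minimum. They rest on activated replicate 2 alone. In EIF3G/E/F, CD69 came to 6.60 and 5.92 reads and CD28 to 6.27 and 5.62.

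The 2 bands with most reads were also compared within activated cells, where both bands of a replicate came from 1 sample. CD28 was higher in EIF3A/C/B than in EIF3B/C by 0.79 on the log2 scale (standard error 0.25), which did not pass (adjusted p = 0.113, edgeR). The difference was 0.49 for CD6 (standard error 0.29, adjusted p = 0.312, edgeR). For CD69 it was 0.07 (standard error 0.22, adjusted p = 0.834, edgeR), and its sign turned under DESeq2, TMM and the summed cluster reads (-0.24, -0.26 and -0.21) and without EIF3A/C/B replicate 1 or EIF3B/C replicate 2 (-0.16 and -0.04). None of the 3 receptors passed, and 1 (CD28) had an unadjusted p under 0.05, while 7.46% of 3405 genes were called higher in EIF3A/C/B. Under DESeq2 none passed either. Without EIF3B/C replicate 2, CD28 passed (adjusted p = 0.049, log2 difference 1.04, edgeR), and without the other libraries it did not, with adjusted p from 0.135 to 0.477. The paired fit, with the replicate number as a block, left the 3 receptors uncalled (adjusted p from 0.233 to 0.842) and gave 0 calls among all genes in place of 254 higher and 86 lower, with 756 genes at an unadjusted p under 0.05. TMM moved the median gene from 0.59 to 0.26 and the split to 108 higher and 172 lower, and DESeq2 gave 505 and 309.

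The 75 genes of related lists gave the setting of these receptors. Of 40 other surface receptors of T cells, 12 had a cluster in either activated EIF3A/C/B library, as did 16 of 22 signalling genes that act below the receptors and 1 of 13 ligands (CD48, with 7 and 7 reads). Of all 17702 protein-coding genes of the abundance tables, 27.5% had one. The lists also differed in abundance, with a median activated TPM of 0.556 for the receptors, 1.35 for the signalling genes and 0.151 for the ligands, beside 0.204 for all protein-coding genes. In EIF3A/C/B, 7 of 7 tested receptors and 14 of 15 tested signalling genes had no cluster in either non-activated library. The same held for 3024 of all 3221 genes tested there. In EIF3B/C the counts were 4 of 7 receptors, 8 of 11 signalling genes and 1161 of all 2188 genes. The comparison of the lists between the states is limited like that of the 3 members, and its calls are not given. Between the bands, 2 of 23 tested genes, both of the signalling list, were higher in EIF3A/C/B, beside 7.46% of all 3405 genes tested.

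CD82, a tetraspanin of the cell surface, led the lists with 430 and 458 reads in activated EIF3A/C/B. GRB2, an adaptor that binds the tail of CD28, had 313 and 349 reads. It also had non-activated clusters, of 7 reads in 1 EIF3A/C/B library, 18 and 29 reads in EIF3B/C and 10 reads in 1 EIF3F/E library. SIVA1, a protein that binds the tail of CD27, had 125 and 129 reads, and 8 and 22 in non-activated EIF3B/C, although CD27 itself had no cluster. PPP2CA, the catalytic subunit of a phosphatase that binds CTLA4 and CD28, had 130 and 122 reads, and 9 in non-activated EIF3B/C replicate 2, while LCK, the kinase that phosphorylates CD28 and the antigen receptor, had 103 and 110. CD82 and LCK had no non-activated cluster. All 5 had more reads in EIF3A/C/B than any of the 9 receptors.

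In abundance, 7 of the 38 list genes at a mean TPM of 1 or more were past a centred log2 difference of 1 upwards, against 5.76% of all genes, and 5 were past it downwards, against 3.77%. Their median was -0.02, beside 0 for all genes by construction. LCP2 (SLP-76), an adaptor of antigen receptor signalling, was at 5.42 TPM with activation and 4.96 without (centred log2 difference 2.34). CD82 had a centred difference of 1.42 but a lower TPM in activated cells (5.47 against 9.56). SIVA1 was at 2.95 TPM against 40.6 in non-activated cells (-1.52), LAIR1, an inhibitory collagen receptor, at 0.664 against 8.50 (-1.28), and GRAP2, an adaptor that binds CD28 and LCP2, at 1.52 against 17.9 (-1.25).

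The genes most like CD28, CD69 and CD6 over the 20 libraries were sought by the Euclidean distance of log2 of the depth-scaled reads plus 1. The nearest to CD69 was HIST1H2BK, a histone gene, at a distance of 1.06, with 128 and 120 reads in EIF3A/C/B and 15 and 17 in EIF3D/L, and between them 67 and 62 in EIF3B/C. The nearest to CD28 was RNU2-25P, annotated as a copy of the U2 small nuclear RNA, at 0.92. SESN2, a stress-induced regulator of growth signalling, was nearest to CD6 at 1.90.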

How the data were processed

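Clusters were called by the authors with PARalyzer on reads aligned to hg38, at a minimum of 7 reads and 2 conversion positions. For each gene the authors deposited counts of reads, distinct sequences and sites in called clusters, and a score that sums the T-to-C fraction over its sites. The library statistics hold counts of reads, also as deposited. The authors estimated TPM with Cutadapt 2.6 and kallisto 0.46.0 and deposited the mean of 2 replicates per transcript, so the read depth of these tables is unknown. The methods name GENCODE 32 for that index.

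Here a library that did not list a gene gave it 0 reads. Cluster reads were tested by the quasi-likelihood method of edgeR 4.0.16 under R 4.3.3 (at least 20 reads in any library, Benjamini-Hochberg adjustment over all genes tested, threshold 0.05). The library sizes were the uniquely aligned reads. DESeq2 1.42.0, TMM, other library sizes, no filter, distinct sequences, leaving out each library and a replicate block were alternatives. The test was tried on simulated data. TPM differences used log2 of TPM plus 0.1, less the median gene with a mean TPM of at least 1. Python 3.11.15, pandas 2.3.3 and matplotlib 3.10.9 were used.

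Replicate pairs differed by more than sampling noise over genes listed in both libraries in 8 of the 10 pairs (chi-squared per degree of freedom from 1.98 to 3.79), and by less in non-activated EIF3A/C/B (0.820) and EIF3G/E/F (0.844), which hold no receptor. The paper calls the replicates biological, but the labels name no separate cultures, so p-values measure the spread between these libraries. All 9 receptors were named, and of the related lists the 5 genes with most activated EIF3A/C/B reads and the 3 largest TPM differences each way, except a result that is not reported here. The receptors and gene lists were chosen with earlier results of these data known. Start codon windows and gene positions came from GENCODE v44. For CD28 the transcript version there differs from that of the TPM table, so its region lengths are not given.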

Additional observations from a re-analysis of the deposited data

How the results depend on the processing

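Receptor calls in activated against non-activated cells were 3 in EIF3A/C/B and also 3 in EIF3B/C, all against zeros that the minimum of 7 reads and the lower depth can give with no change. They came to 0 in both bands with a replicate block, which made the replicate number a term although the labels do not pair the states (adjusted p = 0.841 for the EIF3A/C/B receptors and 0.531 to 0.754 for those of EIF3B/C, edgeR). The correlations of same-numbered deviations were -0.0066 (EIF3A/C/B) and 0.069 (EIF3B/C). The summed cluster reads as library sizes gave 0 in EIF3A/C/B, and the fits without 1 library gave 0 to 3 in both bands. With no filter on low counts, 2 receptors (CD69 and CD6) were called in EIF3D/L, where none passed the filter, beside 668 higher of all 1266 genes and against the same kind of zeros. The count of receptors higher in EIF3A/C/B than in EIF3B/C was 0 to 1 in the fits without 1 library. For these the lone library was assumed to vary like the other state or band.

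All genes called higher in EIF3A/C/B came to 347 under DESeq2, 131 with summed cluster reads, 0 with a replicate block (61 at an unadjusted p under 0.05) and 0 to 1793 without 1 library. In EIF3B/C they were 407 under DESeq2, 0 with a replicate block (242 unadjusted) and 0 to 1337 without 1 library. Higher genes between the bands were 505 under DESeq2, 108 under TMM, 114 with summed cluster reads, 147 with distinct sequences, 0 with no filter (2064 unadjusted), 0 in the paired fit and 0 to 813 without 1 library. The sign of CD69 between the bands turned to -0.24 (DESeq2), -0.26 (TMM), -0.21 (summed cluster reads), and it ran from -0.16 to 0.27 without 1 library.

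The receptors past the TPM fold changed from 4 to 5 with protein-coding isoforms scaled to their own total, where ICOS was also kept. There 622 of all 7861 genes were past it upwards. The receptors changed to 2 with a pseudocount of 1, beside 256 of all 8504 genes, and to 1 with no centring, beside 45. CD28, CD5 and CD6 then turned to -0.81, -0.56 and -0.77, and with no filter on low TPM CD28 and CD6 were at -0.16 and -0.12. With no filter, 3 of the 9 receptors were past the fold: CD69 at 4.46, PDCD1 at 2.59 and ICOS at 2.50. Of all 41129 genes, 935 were then past it upwards and 10816 downwards. PDCD1 and ICOS were under 1 TPM in both states. With start codon sites counted as 5'-UTR, the mean of such sites per EIF3A/C/B library changed from 2.5 to 4.5 (2 to 3 for single libraries). Genes with more reads per TPM than CD28 made up 65.4% by the main protein-coding isoform, 72.8% in EIF3B/C and 53.3% to 56.4% in single replicates. For CD69 single replicates gave 88.0% to 91.6%, and for CD6 EIF3B/C gave 55.7%. The cause of these differences was not tested.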
